A study of Homo sapiens with 10 samples.

Results

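The solute carriers are membrane proteins that move small molecules across the plasma membrane and the membranes of organelles. The members were chosen by name and by measured abundance: genes named SLC, a family number, the letter A and a member number, with 2 iron transporters, SLC11A2 and SLC40A1, left out, and with a mean over all 10 libraries of at least 5 CPM, counts scaled to the library total. Of 60574 genes in the count table, 338 carried such a name, 336 remained without the 2 iron transporters, and 143 reached the level. The level chose the members from their overall abundance and used no difference between the guides. SLC26A1 at 5.27 CPM, SLC29A3 at 5.12 CPM and SLC25A53 at 5.05 CPM lay just inside it, and SLC9A2 at 4.97 CPM, SLC6A8 at 4.51 CPM and SLC14A2 at 4.32 CPM lay just outside. All 143 members were tested, and 2 of them, SLC29A3 and SLC25A53, had a mean under 5 CPM in 1 guide. Of the 193 carriers below the level, 66 were tested and 31 had no count in any library.

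RNA came from U266, a long-established line from a human multiple myeloma, labelled as plasma cells. The cells were made to express dCas9-VPR, a Cas9 that does not cut and carries a transcriptional activator, from a lentivirus. A second vector brought either a guide to the start site of EFNB2, called gRNA2 (5 libraries, A to E), or a scrambled guide without a target, called cgRNA (5 libraries, A to E), so the control cells carry the activator too. All cells grew in RPMI with 10% fetal bovine serum under blasticidin at 8 ug/mL and puromycin at 4 ug/mL, started 4 days after transduction. Whether the 5 libraries with one guide are separate cultures is not labelled, so the p-values speak for the spread of these 10 libraries alone, from 1 cell line and 1 targeting guide.

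Carriers of one family usually share a fold and differ in substrate, in the ion that drives them and in the membrane they sit in. Exchangers such as SLC7A5 work as a pair with a partner subunit and trade one amino acid for another, sodium-coupled carriers such as SLC38A1 concentrate their substrate, and the SLC25 family serves the inner mitochondrial membrane. Plasma cells secrete large amounts of protein, and their demand for amino acids, for sugar nucleotides in the Golgi and for zinc in the secretory pathway is met by members of these families.

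EFNB2, the gene aimed at, measured 0.17, 0.136, 0.143, 0.11 and 0.0365 CPM in the control libraries A to E and 0.955, 1.12, 1.25, 1.5 and 1.21 CPM in the EFNB2 guide libraries. Every EFNB2 guide library lay above every control library, with a 9.96-fold higher level (log2 fold change 3.32, SE 0.25, adjusted p = 4.68e-08, and p = 0.0079 by a two-sided exact permutation test). A count of 0 allows up to 0.0537 to 0.0582 CPM in the control libraries, so the size of this rise is less certain than its direction. The plasma cell list had all 8 of 8 genes above 1 CPM, summing to 4070 to 4590 CPM with the control guide and 3570 to 3740 CPM with the EFNB2 guide. The sum follows SDC1, the most abundant of them (2990 CPM with the control guide and 2130 with the EFNB2 guide). TNFRSF17 and MZB1 also had the lower mean with the EFNB2 guide, and the other 5 the higher one, among them XBP1 (311 and 363 CPM) and CD38 (1.77 and 8.08 CPM). Of the lists for other cells, none of 5 B cell and none of 4 myeloid genes reached 1 CPM, 1 of 5 T cell genes did (CD3E), and 2 of 5 fibroblast or epithelial genes did (COL1A1 and KRT18). Their sums ran from 0.618 to 1.15 CPM against 0.669 to 1.06 CPM in the control for B cell genes, 0.309 to 0.465 against 0.0901 to 0.346 for myeloid genes, 3.56 to 4.3 against 3.85 to 5.73 for T cell genes, and 24.7 to 29 against 17.5 to 24.1 for fibroblast or epithelial genes. The part of these markers in the results below was not tested.

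The A library of each guide stood apart. Over the members, its median absolute distance from the other libraries of its guide was 0.0729 (EFNB2 guide) and 0.0748 (control guide) on the log2 scale, against 0.0292 to 0.0511 in the other 8 libraries. In 66 of 143 members the EFNB2 guide library A lay beyond the other 4 on the side of the control guide, and in 31 on the far side. The control library A lay beyond its other 4 on the side of the EFNB2 guide in 67 members and on the far side in 26, and both A libraries lay toward the other guide in 39. Where leaving out both A libraries ends or brings the call of a member named here, that value stands beside it.

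As a group the expressed carriers held an even share of the RNA, 0.825% ± 0.00337 of all counts with the EFNB2 guide and 0.831% ± 0.00876 with the control guide (mean ± SD, n = 5 each), and the guides overlapped. Within that share many single members moved by small amounts. With the EFNB2 guide 37 members were higher, 48 were lower and 58 did not pass the test (edgeR's quasi-likelihood test over all 17834 tested genes, adjusted p under 0.05). That is 59.4% of members called, beside 45.4% of all tested genes (22.8% higher and 22.6% lower) and 56.3% of the 10625 tested genes at 5 CPM or more (26.0% higher and 30.3% lower), so the share of carriers called was near that of genes of like level. The counts by class below stand beside these shares, and no class was tested as a set. The median log2 fold change of the members was -0.017, beside -0.013 for tested genes at 5 CPM or more and 0.0073 for all tested genes. Members changed by a median of 0.14 in either direction, and the range ran from -0.99 to 1.01. The guides did not overlap in 55 members, 38.5% of them, beside 38.3% of genes at 5 CPM or more. In bulk RNA, fewer cells of a kind and less RNA per cell cannot be told apart. Without both A libraries, 41 members were higher and 58 lower.

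**Figure D1:**
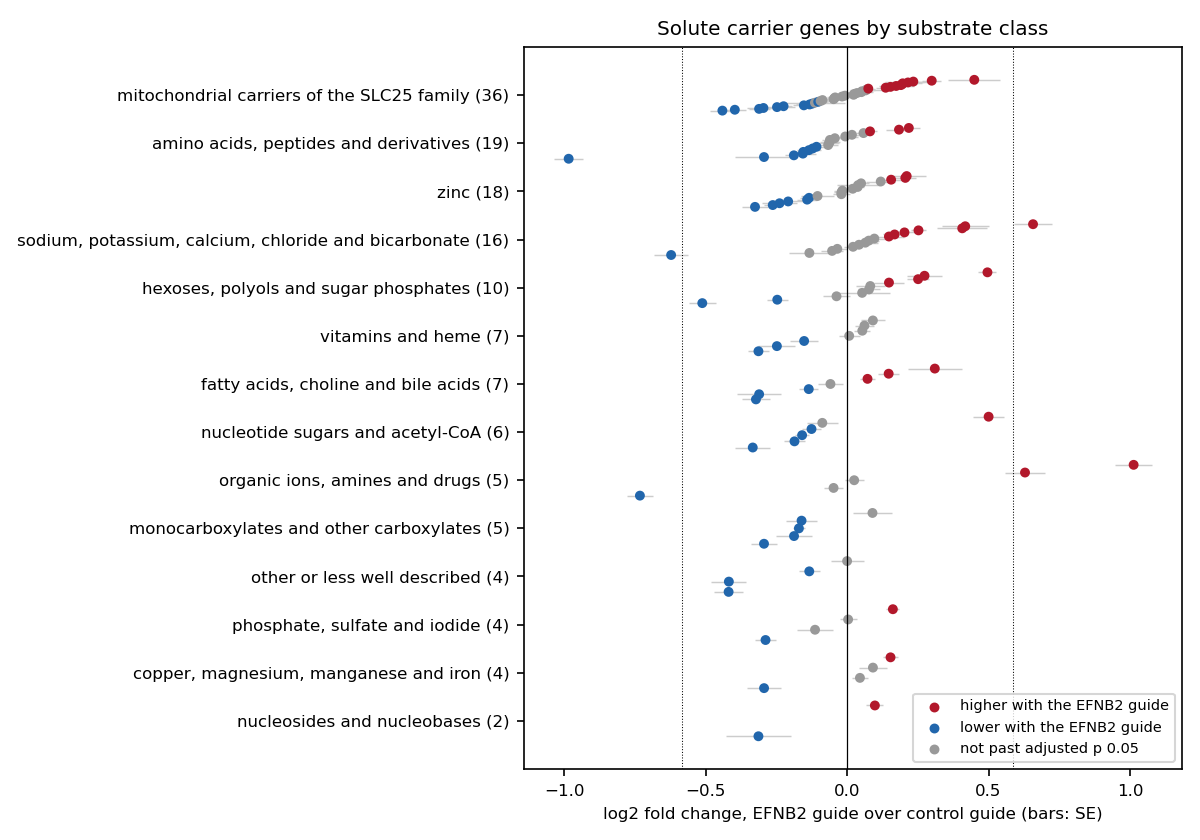
Log2 fold change of each of the 143 carriers (points; bars are standard errors) by substrate class, with the number of members in brackets and dotted lines at 1.5-fold. Higher and lower members occur side by side in most classes, and 6 members lie beyond 1.5-fold.

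Changes of at least 1.5-fold were few: 3 members higher and 3 lower, beside 2.15% and 1.69% of tested genes at 5 CPM or more. By level, 61.4% of the 44 members between 5 and 20 CPM were called, 63.3% of the 60 members between 20 and 60 CPM and 51.3% of the 39 members from 60 CPM up, beside 51.5%, 56.0% and 60.2% of all tested genes in the same ranges. None of the 6 members past 1.5-fold had a mean above 60 CPM.

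**Figure D2:**
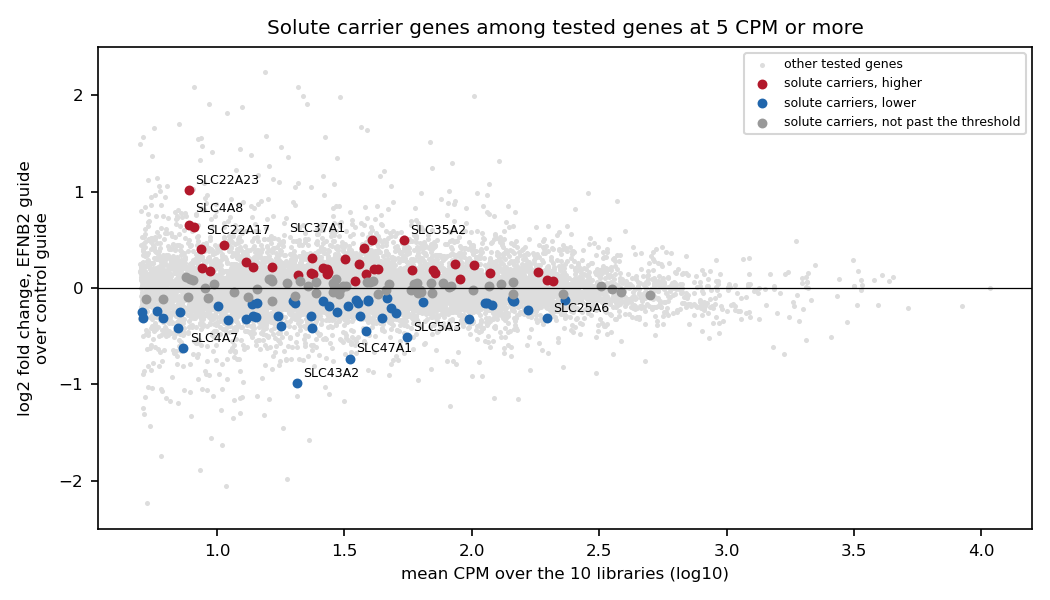
Log2 fold change against mean CPM (log10 axis) for tested genes at 5 CPM or more, with carriers in colour; 19 genes lie outside the vertical range of 2.5 either way. SLC22A23 and SLC43A2 lie at the ends of the carriers' range.

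The largest fall was in SLC43A2 (chr17:1569267-1628886, GRCh38), which encodes LAT4, a sodium-independent carrier that lets large neutral amino acids such as leucine and phenylalanine pass down their gradient. It measured 25.1, 27.7, 28.3, 27.8 and 27.8 CPM with the control guide and 15.7, 13.5, 12.9, 13.7 and 13.4 CPM with the EFNB2 guide, in the order A to E. All EFNB2 guide libraries lay under all control libraries, and in each guide library A was the one nearest the other guide. The difference was large beside the spread (log2 fold change -0.99, SE 0.0521, adjusted p = 7.86e-10), and the log2 fold change was -1.07 with both A libraries left out (adjusted p = 3.16e-16).

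SLC22A23 (chr6:3268962-3457022), an organic ion transporter relative whose substrate is not established, rose the most, with 5.26, 5.93, 4.82, 4.61 and 5.10 CPM with the control guide and 10.3, 10, 10.5, 10.9 and 10.1 CPM with the EFNB2 guide. The EFNB2 guide libraries lay within 10.0 to 10.9 CPM and far above the control libraries (log2 fold change 1.01, SE 0.0653, adjusted p = 7.46e-09). PSMG4, which shares 1388 exon bases with it on the other strand, was at 19.8 CPM with a log2 fold change of 0.03 (adjusted p = 0.485). In the same family SLC22A17 (chr14:23346306-23352912), described as a receptor for the iron-binding protein lipocalin-2, measured 7.15, 6.38, 6.56, 5.45 and 6.23 CPM with the control guide and 10.4, 9.99, 8.84, 9.84 and 10 CPM with the EFNB2 guide. Its groups were also separate (log2 fold change 0.63, SE 0.0695, adjusted p = 2.79e-06). SLC47A1 (chr17:19495385-19579034), the proton-coupled exporter MATE1 of organic cations, went down, with 37, 41.9, 41.9, 42.5 and 44 CPM with the control guide and 26.6, 23.4, 24.7, 25 and 24.9 CPM with the EFNB2 guide. No library of one guide reached the range of the other (log2 fold change -0.73, SE 0.0458, adjusted p = 5.37e-09). The remaining members of this class, the carnitine carrier SLC22A5 (log2 fold change 0.025, adjusted p = 0.588) and the sialic acid exporter SLC17A5 (-0.048, adjusted p = 0.26), did not pass the test. SLC17A5 passed it without both A libraries, with a log2 fold change of -0.091.

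**Figure D3:**
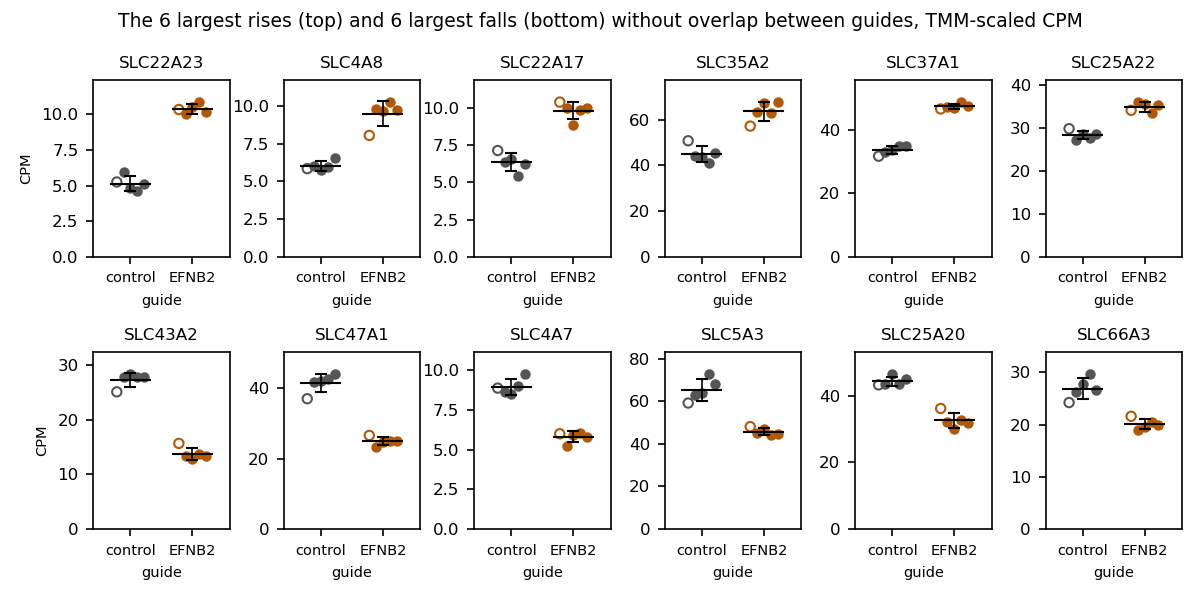
TMM-scaled CPM per library (points; open circles are the A libraries; lines are mean ± SD, n = 5) for the 6 largest rises and the 6 largest falls among members whose guides do not overlap; each axis starts at 0. In 5 of the 6 falls the EFNB2 guide library A is the highest of its group.

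Sodium and bicarbonate carriers supplied a pair that moved apart. SLC4A8 (chr12:51391317-51515763), a sodium-driven exchanger of chloride for bicarbonate, measured 5.84, 5.99, 5.73, 5.95 and 6.54 CPM with the control guide and 8.04, 9.78, 9.64, 10.2 and 9.75 CPM with the EFNB2 guide. Library A was the lowest of the EFNB2 guide but still above every control library (log2 fold change 0.66, SE 0.0683, adjusted p = 1.47e-06). SLC4A7 (chr3:27372721-27484420), the sodium-bicarbonate cotransporter NBCn1, measured 8.88, 8.61, 8.53, 9 and 9.75 CPM with the control guide and 6.01, 5.22, 5.96, 6.09 and 5.81 CPM with the EFNB2 guide. Here every EFNB2 guide library was under every control library (log2 fold change -0.62, SE 0.0604, adjusted p = 7.08e-07). Both proteins bring bicarbonate into the cell. SLC4A2, the chloride-bicarbonate exchanger AE2, which works in the other direction, rose from 78.7 to 93.7 CPM (log2 fold change 0.25, SE 0.0277, adjusted p = 2.58e-06).

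In the class of sodium, potassium, calcium, chloride and bicarbonate as a whole, 7 of 16 members were higher, 1 was lower and 8 did not pass, with a median log2 fold change of 0.086. SLC26A6, an anion exchanger, measured 40.2, 32.4, 29.1, 27.5 and 31.8 CPM with the control guide and 37.6, 46.5, 43.7, 41.9 and 45.3 CPM with the EFNB2 guide. The control library A lay above the EFNB2 guide library A, so the groups overlapped, and the log2 fold change of 0.42 (adjusted p = 0.000774) was 0.56 with both A libraries left out (adjusted p = 3.57e-10). The sodium-proton exchanger SLC9A5 rose (log2 fold change 0.41, adjusted p = 0.00146), and its relatives SLC9A7 and SLC9A8 had values of 0.10 and 0.076 and did not pass. SLC9A7 (adjusted p = 0.0511) passed in 6 of 20 settings and SLC9A8 in 3, each also without both A libraries (0.11, adjusted p = 0.0389, and 0.10, adjusted p = 0.0179). SLC9A5 shares 78 exon bases on its own strand with AC040160.1, at 113 CPM, and 571 on the other strand with FHOD1, at 155 CPM, so its 8.67 CPM cannot be assigned with certainty. Its log2 fold change was 0.55 with both A libraries left out (adjusted p = 4.35e-08). Of the cation-chloride family, SLC12A9 rose (0.20, adjusted p = 0.00579), and NKCC1, SLC12A2, which brings in sodium, potassium and chloride together, had a log2 fold change of 0.042, adjusted p = 0.334. Without both A libraries 3 members of the class were lower in place of 1.

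Of the amino acid carriers, 3 of 19 were higher, 8 lower and 8 not past the test, with a median log2 fold change of -0.065. SLC3A2, the heavy chain CD98 that brings several SLC7 exchangers to the surface, measured 252.3, 233, 242, 236 and 247 CPM with the control guide and 225, 225, 223, 219.8 and 220.4 CPM with the EFNB2 guide. Its groups did not overlap although the change was small (log2 fold change -0.12, SE 0.0250, adjusted p = 0.000952). Its best known partner SLC7A5, LAT1, which brings in leucine in exchange for glutamine, measured 254, 221, 231, 220.5 and 234 CPM with the control guide and 214, 229, 224, 222 and 223 CPM with the EFNB2 guide. Those groups overlapped, with the control library A the highest of all (log2 fold change -0.061, SE 0.0355, adjusted p = 0.176), and no setting tried brought SLC7A5 past the threshold. Of the other SLC3A2 partners, the glutamate-cystine exchanger SLC7A11 fell (-0.14, adjusted p = 0.017; not past the test without the EFNB2 guide library B or D, adjusted p up to 0.0575), and SLC7A6 had a log2 fold change of 0.058, adjusted p = 0.0908. SLC7A6 passed the test in 3 of 20 settings, among them that without both A libraries (0.084, adjusted p = 0.00111). SLC7A11 shares 865 exon bases with its antisense gene on the other strand, which was at 14.8 CPM (log2 fold change 0.11, adjusted p = 0.07).

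Among carriers that work alone, SLC7A1, the arginine and lysine carrier CAT-1, went from 121 to 109 CPM without overlap (log2 fold change -0.16, SE 0.0277, adjusted p = 0.000296). The glutamine carrier SLC1A5, ASCT2, went from 149 to 138 CPM with overlapping groups (log2 fold change -0.11, SE 0.0383, adjusted p = 0.0305), and its relative SLC1A4 changed in the other direction (0.081, adjusted p = 0.0207). These last 2 calls were each lost under 7 of 20 settings, with adjusted p up to 0.0993 for SLC1A5, lost without any 1 of the EFNB2 guide libraries B to E or control C or E, and 0.0934 for SLC1A4, lost without the EFNB2 guide library B or control B, C or D. The taurine carrier SLC6A6 fell (-0.19, adjusted p = 0.000179). For the glycine carrier SLC6A9 the values were 20.7, 14.6, 14.4, 12.8 and 13.7 CPM with the control guide and 12, 13.2, 12.5, 12.1 and 12.2 CPM with the EFNB2 guide. Its control library A stood far above the other 4, and the log2 fold change of -0.29 became -0.15 with both A libraries left out (adjusted p = 0.0184). That call was lost without any 1 of the EFNB2 guide libraries A, C, D and E (adjusted p up to 0.0602). None of the 5 SLC38 members passed: SLC38A1, a sodium-coupled glutamine carrier, had 472, 518, 508, 541 and 519.6 CPM with the control guide and 516, 481, 479, 487 and 478 CPM with the EFNB2 guide, and both A libraries lay on the side of the other guide. SLC38A1 gave a log2 fold change of -0.067 (adjusted p = 0.117), and of -0.12 with both A libraries left out (adjusted p = 4.14e-05). SLC38A10 also passed without them (-0.063, adjusted p = 0.0435), and SLC38A2, a relative that is raised by amino acid shortage in many cells, had a log2 fold change of 0.017, adjusted p = 0.608.

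The carriers of the lysosome did not move as one. SLC36A1, which exports small neutral amino acids with protons, rose from 15.1 to 17.6 CPM (log2 fold change 0.22, SE 0.0385, adjusted p = 0.000273), and the peptide and histidine carrier SLC15A4 rose too (0.18, adjusted p = 0.00364). SLC66A1, an exporter of cationic amino acids, fell (-0.16, adjusted p = 0.0127), and SLC38A9, an arginine-sensing carrier that signals to mTORC1, had a log2 fold change of -0.044, adjusted p = 0.241.

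**Figure D4:**
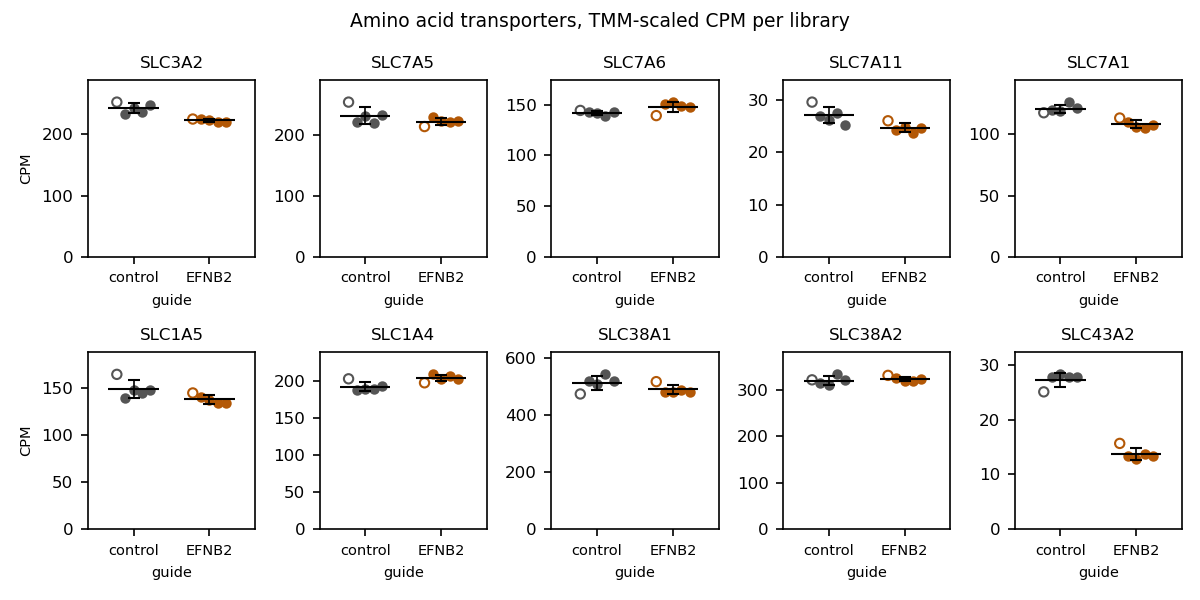
TMM-scaled CPM per library (points; open circles are the A libraries; lines are mean ± SD, n = 5) for 10 amino acid carriers; each axis starts at 0. Apart from SLC43A2, the groups differ by little beside their level.

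Of the 36 members of the SLC25 family of mitochondrial carriers, 11 were higher, 10 lower and 15 not past the test, with a median log2 fold change of 0.0073 and none past 1.5-fold. SLC25A20, which exchanges acylcarnitine for carnitine and so carries fatty acids into the matrix, had the largest fall, with 43.3, 43.5, 46.5, 43.5 and 45 CPM with the control guide and 36.2, 32.1, 30.1, 32.8 and 31.9 CPM with the EFNB2 guide. All libraries with the EFNB2 guide were under all controls (log2 fold change -0.44, SE 0.0425, adjusted p = 6.55e-07). SLC25A22, a glutamate carrier, rose, with 29.9, 27.1, 28.6, 27.8 and 28.5 CPM with the control guide and 34.2, 36.1, 35.6, 33.4 and 35.4 CPM with the EFNB2 guide and no overlap (log2 fold change 0.30, SE 0.0344, adjusted p = 4.26e-06). The largest estimate among the rises was that of SLC25A34, grouped here with the di- and tricarboxylate carriers, with 11.1, 9.19, 8.40, 7.88 and 8.51 CPM with the control guide and 9.92, 12.8, 13.3, 12.4 and 13.1 CPM with the EFNB2 guide. There the EFNB2 guide library A fell inside the control range, and the log2 fold change of 0.45 (adjusted p = 0.001) was 0.60 with both A libraries left out (adjusted p = 3.58e-09).

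The ADP/ATP carriers, which pass ATP made in the matrix to the rest of the cell, differed among themselves. SLC25A6 measured 208, 213, 228, 223 and 218 CPM with the control guide and 159, 183, 177, 180.3 and 178 CPM with the EFNB2 guide, and its groups were separate (log2 fold change -0.31, SE 0.0369, adjusted p = 5.7e-06). SLC25A5, the most abundant member per kilobase of exon, measured 353, 344, 364, 360.3 and 361 CPM with the control guide and 348, 358, 349.7, 360.0 and 356 CPM with the EFNB2 guide with overlapping groups (log2 fold change -0.0080, SE 0.0230, adjusted p = 0.808), and SLC25A4 had a log2 fold change of 0.065, adjusted p = 0.133. The annotation names 6 pseudogenes of SLC25A6 and 9 of SLC25A5, and reads shared with them could not be separated here. Calcium-dependent carriers of ATP-magnesium for phosphate went both ways: SLC25A23 fell from 20.3 to 15.4 CPM (-0.40, adjusted p = 8.16e-07), SLC25A24 fell (-0.10, adjusted p = 0.0196), and SLC25A25 rose from 93.7 to 110.1 CPM (0.23, adjusted p = 0.00017). SLC25A24 lost its call under 7 of 20 settings, and SLC25A25 shares 665 exon bases with its antisense gene, which was at 43.7 CPM (log2 fold change 0.25, adjusted p = 0.0329). Of the 8 carriers of adenine and pyrimidine nucleotides, 1 was higher, 4 lower and 3 not past.

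Carriers of amino acids, carnitine and ornithine came to 4 higher, 1 lower and 4 not past of 9, those of di- and tricarboxylates to 2 higher and 2 not past of 4, and those of phosphate, metals and cofactors to 3 higher, 2 lower and 4 not past of 9. The citrate carrier SLC25A1 rose (0.19, adjusted p = 7.21e-05), as did the ornithine carrier SLC25A15 (0.14, adjusted p = 0.00462) and SLC25A44, linked to branched-chain amino acids (0.15, adjusted p = 0.000613). The phosphate carrier SLC25A3 measured 389.7 ± 12.3 CPM with the control guide and 378 ± 3.55 CPM with the EFNB2 guide (mean ± SD, n = 5 each) and had a log2 fold change of -0.046, adjusted p = 0.145, which passed in 3 of 20 settings: on the deposited normalized values, without the control library A and without both A libraries (-0.059, adjusted p = 0.0226). SLC25A46, an outer membrane protein involved in mitochondrial shape, fell from 179 to 153 CPM (-0.23, adjusted p = 1.22e-05), and SLC25A33, a pyrimidine nucleotide carrier, fell (-0.15, adjusted p = 0.00486).

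Of the 143 members, 120 matched a RefSeq promoter (GRCh38.p14), taken here as the 250 bases before the first start listed for the gene. The E-box CACGTG, the palindrome bound by MYC and by the lysosomal regulator TFEB, was in 13 of the 120 (10.8%), beside 6.50% of all 27195 promoters of the same length. It was in 3 of 34 promoters of higher members, 4 of 40 of lower members and 6 of 46 of members not past the test, and in 6 of 31 SLC25 promoters (19.4%). The 27195 promoters were not limited to genes at 5 CPM or more, and shares among genes of like level were not measured. The 4 shown were chosen to set members that fell beside one that rose, with the E-box in capitals. SLC25A33, SLC25A46 and SLC26A2 fell, and SLC20A1 rose.
SLC25A33, chr1:9539215-9539464, + strand: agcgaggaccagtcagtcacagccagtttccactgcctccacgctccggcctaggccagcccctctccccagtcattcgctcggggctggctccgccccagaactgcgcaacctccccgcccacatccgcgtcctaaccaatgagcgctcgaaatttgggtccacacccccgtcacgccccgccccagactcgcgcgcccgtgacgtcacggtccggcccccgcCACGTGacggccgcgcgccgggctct
SLC25A46, chr5:110738757-110739006, + strand: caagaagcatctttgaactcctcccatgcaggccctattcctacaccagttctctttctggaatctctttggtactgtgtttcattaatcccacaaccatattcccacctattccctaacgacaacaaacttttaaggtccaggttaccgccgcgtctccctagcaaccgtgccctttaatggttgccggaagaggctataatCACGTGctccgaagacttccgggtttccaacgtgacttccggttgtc
SLC26A2, chr5:149960508-149960757, + strand: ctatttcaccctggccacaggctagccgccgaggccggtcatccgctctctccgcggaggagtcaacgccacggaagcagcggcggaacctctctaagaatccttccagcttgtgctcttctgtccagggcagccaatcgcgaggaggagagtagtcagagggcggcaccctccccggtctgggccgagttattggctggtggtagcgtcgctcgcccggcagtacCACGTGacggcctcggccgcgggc
SLC20A1, chr2:112645689-112645938, + strand: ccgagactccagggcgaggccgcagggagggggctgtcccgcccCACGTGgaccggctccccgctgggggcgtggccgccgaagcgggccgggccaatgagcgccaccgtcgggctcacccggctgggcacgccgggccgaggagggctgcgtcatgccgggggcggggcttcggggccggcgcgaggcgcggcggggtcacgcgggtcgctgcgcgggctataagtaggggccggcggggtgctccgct
The E-box began 26, 47 and 24 bases before the start in the 3 that fell and 206 bases before it in SLC20A1. These 4 do not show a rule of distance. In the other called members with an E-box it began 143 bases before the start in SLC35A4, which fell. It began 60 and 245 bases before it in SLC9A5 and SLC29A1, which rose. The amino acid response motif TGATGNAA, searched on both strands, was in 2 of 120 member promoters (1.67%) and in none of 17 of amino acid carriers, beside 3.18% of all promoters. These are matches of letters in 1 window per gene.

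SLC26A2, which brings sulfate in for the sulfation of proteoglycans, measured 39.3, 38.3, 39, 42.4 and 40.5 CPM with the control guide and 34, 33.2, 31, 31.1 and 33.9 CPM with the EFNB2 guide. The groups were separate (log2 fold change -0.29, SE 0.0379, adjusted p = 1.64e-05). SLC20A1, a sodium-phosphate cotransporter, measured 178, 166, 171, 171 and 173 CPM with the control guide and 196, 189, 192, 195 and 189 CPM with the EFNB2 guide, also without overlap (log2 fold change 0.16, SE 0.0234, adjusted p = 4.34e-05). Its relative SLC20A2 had a log2 fold change of 0.0032, adjusted p = 0.942, and SLC26A1, at the edge of the level, of -0.11, adjusted p = 0.153. Thus 1 of 4 members of the phosphate, sulfate and iodide class was higher and 1 lower. SLC26A1, at 5.27 CPM, shares 534 exon bases on the other strand with IDUA, at 93.2 CPM. Its count and its place above the level are therefore uncertain.

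For zinc, 3 of 18 members were higher, 6 lower and 9 not past the test, with a median log2 fold change of -0.019. The importers SLC39A8 and SLC39A14, close relatives that also take up manganese and iron, both fell. SLC39A8 measured 94.2, 105, 115, 116 and 112 CPM with the control guide and 91.2, 85.6, 83.6, 86.6 and 84.7 CPM with the EFNB2 guide, with the control library A the lowest of its guide (log2 fold change -0.33, SE 0.0477, adjusted p = 4.82e-05). SLC39A14 measured 53.1, 54.3, 55.3, 56.7 and 55.7 CPM with the control guide and 48.3, 43.3, 46, 46.5 and 45.2 CPM with the EFNB2 guide, without overlap (log2 fold change -0.26, SE 0.0319, adjusted p = 7.28e-06). SLC30A1, the exporter at the plasma membrane, measured 45.4, 50.2, 52.4, 56.2 and 54.1 CPM with the control guide and 49.1, 44.1, 44.4, 43.8 and 42.1 CPM with the EFNB2 guide, and the EFNB2 guide library A lay within the control range (log2 fold change -0.21, SE 0.0525, adjusted p = 0.00438). Its log2 fold change was -0.29 with both A libraries left out (adjusted p = 1.09e-07). SLC30A4, a carrier into vesicles, rose from 24.2 to 27.9 CPM (0.21, adjusted p = 0.000258). The carriers that load zinc into the secretory pathway, SLC30A5, SLC30A6 and SLC30A7, had log2 fold changes of 0.019, -0.020 and -0.021, and SLC39A7, which releases zinc from the endoplasmic reticulum, of 0.037; none of the 4 passed. Without both A libraries SLC39A7 did (0.056, adjusted p = 0.0218). The others that rose were SLC39A1 (0.21, adjusted p = 0.0182) and SLC39A3 (0.16, adjusted p = 0.00684), and SLC39A1 shares 280 exon bases with CREB3L4 on the other strand, at 30.2 CPM.

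The core of the metal response element, to which the zinc sensor MTF1 binds, was searched as TGCACNC or TGCGCNC on both strands and was in 29 of 120 member promoters (24.2%), beside 24.8% of all. SLC30A1, a known target of that sensor, and SLC30A4 are shown because they moved in opposite directions, with the match in capitals as it reads on the gene's strand.
SLC30A1, chr1:211579162-211579411, - strand: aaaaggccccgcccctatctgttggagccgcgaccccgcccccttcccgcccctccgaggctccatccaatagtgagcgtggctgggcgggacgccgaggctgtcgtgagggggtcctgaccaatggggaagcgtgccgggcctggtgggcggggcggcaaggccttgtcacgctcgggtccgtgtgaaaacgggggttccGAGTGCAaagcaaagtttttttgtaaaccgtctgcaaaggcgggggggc
SLC30A4, chr15:45522756-45523005, - strand: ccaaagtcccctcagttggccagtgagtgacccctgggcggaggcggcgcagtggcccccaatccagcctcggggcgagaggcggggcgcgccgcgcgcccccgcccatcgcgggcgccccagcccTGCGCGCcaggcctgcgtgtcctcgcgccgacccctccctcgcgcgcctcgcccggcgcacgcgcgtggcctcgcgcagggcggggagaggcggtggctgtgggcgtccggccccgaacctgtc
The match began 49 bases before the start in SLC30A1 and 124 bases before it in SLC30A4, and 5 of 15 zinc carrier promoters held one (33.3%).

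Of the other metals, the magnesium carriers split: SLC41A2 fell from 25.8 to 21.1 CPM (log2 fold change -0.29, SE 0.0602, adjusted p = 0.000951) and SLC41A1 rose from 112 to 124 CPM (log2 fold change 0.15, SE 0.0250, adjusted p = 0.000134). The copper importer SLC31A1 had a log2 fold change of 0.045, adjusted p = 0.202.

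In the class of hexoses, polyols and sugar phosphates, 4 of 10 members were higher, 2 lower and 4 not past. SLC5A3 (chr21:34073570-34106262), the sodium-coupled carrier of myo-inositol that answers to osmotic stress, measured 59.1, 62.9, 64, 72.6 and 68 CPM with the control guide and 48, 45.1, 46.9, 44.2 and 44.7 CPM with the EFNB2 guide. Its groups lay well apart (log2 fold change -0.51, SE 0.0468, adjusted p = 3.75e-07). It shares 273 exon bases on the same strand with MRPS6, which fell too (20.6 CPM, log2 fold change -0.61, adjusted p = 1.89e-06), so the reads of the pair cannot be fully told apart. SLC37A1, a sugar phosphate exchanger of the endoplasmic reticulum, rose, with 31.8, 33, 33.7, 35 and 35 CPM with the control guide and 46.7, 47.4, 47.1, 48.8 and 47.7 CPM with the EFNB2 guide (log2 fold change 0.50, SE 0.0319, adjusted p = 7.44e-09). Of the glucose transporters, GLUT1, SLC2A1, measured 7.85 ± 0.324 CPM with the control guide and 8.31 ± 0.258 CPM with the EFNB2 guide (mean ± SD, n = 5 each), a difference that did not pass (0.082, adjusted p = 0.209), and GLUT3, SLC2A3, averaged 0.0098 CPM and is no member. The largely intracellular SLC2A8 (0.25, adjusted p = 7.66e-05) and SLC2A12 (0.27, adjusted p = 0.00206) rose, and SLC50A1, of the SWEET type, fell (-0.25, adjusted p = 6.56e-05). SLC2A12, at 13.0 CPM, shares 1736 exon bases on the other strand with TBPL1, at 15.9 CPM (log2 fold change -0.0080, adjusted p = 0.919). SLC2A11 measured 33.2, 30.6, 24.8, 25.3 and 25.9 CPM with the control guide and 21.7, 29.8, 32.5, 30.2 and 30.9 CPM with the EFNB2 guide. In it the 2 A libraries lay on the side of the other guide, and the log2 fold change of 0.053 (adjusted p = 0.702) was 0.21 with both A libraries left out (adjusted p = 0.00109).

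The carriers of lactate and related acids had 4 of 5 SLC16 members lower and none higher. Of tested genes at 5 CPM or more, 30.3% were lower and 26.0% higher. SLC16A1, MCT1, a proton-coupled carrier of lactate and pyruvate, measured 128, 129.9, 126, 127 and 123 CPM with the control guide and 112, 113, 112, 115 and 112 CPM with the EFNB2 guide. Its groups were separate (log2 fold change -0.17, SE 0.0225, adjusted p = 1.68e-05). SLC16A7, MCT2, fell from 19.1 to 15.5 CPM (-0.29, adjusted p = 0.00012), and SLC16A6 (-0.19, adjusted p = 0.0248) and SLC16A13 (-0.16, adjusted p = 0.0262) passed with overlapping groups. Those last 2 lost their call under 8 and 6 of 20 settings, among them the fits without single libraries of either guide and, for SLC16A6, that without both A libraries (-0.13, adjusted p = 0.0719). SLC16A6 shares 144 exon bases on the other strand with ARSG, at 12.7 CPM, which fell too (log2 fold change -0.35, adjusted p = 1.53e-05). SLC16A3, MCT4, had a log2 fold change of 0.089, adjusted p = 0.311, and shares 482 exon bases on the other strand with CSNK1D, at 143 CPM.

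Carriers of sugar nucleotides and acetyl-CoA into the Golgi and endoplasmic reticulum came to 1 higher, 4 lower and 1 not past of 6. SLC35A2, which brings UDP-galactose into the Golgi, was the one that rose, with 50.8, 44.3, 43.5, 40.9 and 45.6 CPM with the control guide and 57.2, 63.5, 67.1, 62.9 and 67.7 CPM with the EFNB2 guide. The control library A was the highest of its guide and the EFNB2 guide library A the lowest of its own, still without overlap (log2 fold change 0.50, SE 0.0541, adjusted p = 2.25e-06), and the log2 fold change was 0.58 with both A libraries left out (adjusted p = 1.38e-12). SLC35A3, linked to UDP-N-acetylglucosamine, fell from 29.2 to 25.6 CPM (-0.19, adjusted p = 0.000793), as did SLC35A4 (-0.16, adjusted p = 0.000118) and SLC35A5 (-0.13, adjusted p = 0.0052). SLC35A1, the CMP-sialic acid carrier, had a log2 fold change of -0.088, adjusted p = 0.203. SLC33A1, which takes acetyl-CoA into the endoplasmic reticulum, fell from 12.3 to 9.77 CPM (log2 fold change -0.33, SE 0.0617, adjusted p = 0.000407).

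All 4 SLC27 fatty acid transport proteins passed the test, 2 in each direction, where 56.3% of tested genes at 5 CPM or more passed. SLC27A1 (-0.32, adjusted p = 8.09e-05) and SLC27A5 (-0.31, adjusted p = 0.00434) fell, and SLC27A3 (0.31, adjusted p = 0.0145) and SLC27A4 (0.15, adjusted p = 0.00458) rose. SLC27A5, at 6.12 CPM, shares 1131 exon bases on the other strand with ZNF446, at 17.6 CPM (log2 fold change -0.041, adjusted p = 0.464). SLC27A3 measured 27, 21.3, 18.8, 17.3 and 21.3 CPM with the control guide and 22.4, 27, 28.2, 26.3 and 27.1 CPM with the EFNB2 guide, and both A libraries lay on the side of the other guide. The log2 fold change was 0.47 with both A libraries left out (adjusted p = 7.96e-08). It shares 455 exon bases on its own strand with INTS3, which was at 109 CPM with a log2 fold change of 0.0062, so its count is uncertain. The choline carrier SLC44A1 fell from 154 to 139.9 CPM (-0.14, adjusted p = 0.00406).

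Among vitamin and heme carriers, 3 of 7 were lower and none higher; 2 passed as higher with library totals alone, and 1 without the EFNB2 guide library E. SLC48A1, which moves heme out of endosomes and lysosomes, measured 45.8, 50.9, 48.8, 49.7 and 49.9 CPM with the control guide and 41.6, 38.4, 40.7, 39.1 and 37.3 CPM with the EFNB2 guide. No library of the EFNB2 guide reached the control range (log2 fold change -0.31, SE 0.0366, adjusted p = 4.78e-06). The thiamine carrier SLC19A2 (-0.25, adjusted p = 0.00585) and the reduced folate carrier SLC19A1 (-0.15, adjusted p = 0.0209) also fell, the latter with 4 of 20 settings that ended the call. The proton-coupled folate carrier SLC46A1 had a log2 fold change of 0.061, adjusted p = 0.162. The nucleoside carriers split, with SLC29A1, ENT1, higher (0.10, adjusted p = 0.0145) and the lysosomal SLC29A3, ENT3, lower (-0.31, adjusted p = 0.035). SLC29A1 lost its call on the deposited normalized values (adjusted p = 0.0594). SLC29A3 lost its call under 8 of 20 settings, and without both A libraries its log2 fold change was -0.49. By library totals SLC29A3 had 5.65 CPM with the control guide and 4.6 CPM with the EFNB2 guide. It reached the level of the members through the control guide, so its fall is not independent of that choice. Among members less well described, SLC66A3 fell from 26.9 to 20.1 CPM (-0.42, adjusted p = 8.63e-06) and SLC46A3, a lysosomal carrier, from 8.04 to 6.01 CPM (-0.42, adjusted p = 5.47e-05).

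Levels of different genes are compared per kilobase of exon in GENCODE 29. SLC25A5 led with 238 ± 5.42 CPM per kb with the control guide and 236 ± 3.61 with the EFNB2 guide (mean ± SD, n = 5), with SLC25A6 next at 101 ± 3.68 CPM per kb with the control guide and 81.1 ± 4.43 with the EFNB2 guide. SLC25A39, a mitochondrial carrier tied to glutathione, followed with 57.8 ± 1.24 CPM per kb with the control guide and 60.9 ± 1.11 with the EFNB2 guide. From there the control levels ran closely: SLC38A1 at 51.1 ± 2.50, SLC7A5 at 48.9 ± 2.90, SLC38A2 at 48.4 ± 1.37, SLC3A2 at 46.8 ± 1.53 and SLC1A5 at 44.7 ± 2.80 CPM per kb, with the zinc carrier SLC39A7 at 45.2 ± 0.777 between the last pair. In this run the mean ± SD of each gene overlapped that of the next, so the order of neighbours is not settled beyond the spread. Genes further apart in the run, such as SLC38A1 and SLC39A7, did not overlap in this way.

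Carriers of the superfamily under other names and known partners of carriers were read from a list of 80 genes, of which 70 were tested. Of these, 21 were higher, 20 lower and 29 not past. That is 58.6% called, near the 56.3% of tested genes at 5 CPM or more, beside 45.4% of all tested genes. The 51 superfamily genes came to 14 higher and 10 lower (47.1% called), and the 19 partners and regulators to 7 higher and 10 lower (89.5% called). The list was chosen with earlier results of these data known, and the difference between these shares was not tested. Among those at 5 CPM or more, SLC9A3R1, the scaffold NHERF1 that anchors several carriers at the membrane, fell the most (601 to 356 CPM, log2 fold change -0.76, adjusted p = 3.05e-11). Falls were also seen in CD44 (165 to 103 CPM, log2 fold change -0.68, adjusted p = 2.54e-11), which stabilises SLC7A11, and the kinase WNK3 (21.8 to 16.6 CPM, log2 fold change -0.40, adjusted p = 4.32e-05), a regulator of chloride cotransporters. The organic anion carriers SLCO4A1 (4.12 to 6.70 CPM, log2 fold change 0.70, adjusted p = 9.63e-07) and SLCO3A1 (26.3 to 41.8 CPM, log2 fold change 0.67, adjusted p = 1.69e-10) and the magnesium carrier NIPA2 (100.0 to 138 CPM, log2 fold change 0.46, adjusted p = 7.23e-09) rose. SLCO3A1 and NIPA2 lie on chromosome 15, whose tested genes had a median log2 fold change of 0.31, and with its genes left out 15 of the list were higher in place of 21 and 20 lower as before. Of the chaperones of the SLC16 carriers, embigin, EMB, fell (129 to 99.3 CPM, log2 fold change -0.38, adjusted p = 2.77e-09), and basigin, BSG, had a log2 fold change of 0.064 (adjusted p = 0.286). Their relative neuroplastin, NPTN, also on chromosome 15, rose (69.8 to 81 CPM, log2 fold change 0.21, adjusted p = 4.63e-05).

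Of the 143 members, 38 share exon bases with another gene at 0.2 times their own level or more, 3 of them on the same strand (SLC27A3, SLC5A3 and SLC9A5) and 35 only on the other strand, and 20 of the 38 passed the test. The libraries were made by a strand-specific kit, but the strand setting of the counting is not given in the sources used here, so reads of a pair on opposite strands may have been counted for both. Over 20 settings, 67 of the 85 members past the threshold passed it in each, 18 lost it in at least 1, 34 of the 58 others passed in none, and none of the 143 was called in the opposite direction. The 619 tested genes of chromosome 15 had a median log2 fold change of 0.31, beside -0.00046 on the other chromosomes. SLC24A1 and SLC30A4, members on chromosome 15, had values of 0.064 and 0.21, and the part of their chromosome in these was not tested. SLC24A1, at 24.4 CPM, shares 363 exon bases on the other strand with DENND4A, at 98.5 CPM (log2 fold change 0.42, adjusted p = 1.02e-06).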

How the data were processed

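The 10 RNA libraries of U266 cells were grouped by their genotype label into 5 with the EFNB2 guide and 5 with the scrambled guide. Per the labels' protocols, poly(A) RNA was made into strand-specific libraries and sequenced as read pairs of 150 bp. Per the submitters' processing notes, GRCh38, STAR 2.27a, Partek and DESeq2 were used, with no step given. How reads were assigned to genes, by which annotation and strand, is not given in the sources used here. Main results rest on raw counts of reads per gene as deposited by the authors. They also deposited a normalized signal, which equals the count plus 0.0001 times 1 constant per library (within 0.000497% above 100 counts), used here only as an alternative on the scale log2(value + 1). Totals ran from 47268072 to 56513548 counts, and a count of 0 allows up to 0.0627 CPM in the shallowest library. Row names that read as no gene (3, at most 7e-05% of counts) were left out.

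Genes passing filterByExpr (17834 of 60574) were TMM-scaled, and edgeR 4.0.16 (R 4.3.3) compared the guides by its quasi-likelihood test, guide as the only term, with Benjamini-Hochberg adjustment over all of them and a threshold of 0.05; adjusted p-values in the text come from this test. Standard errors are the log2 fold change over the root of the test statistic. CPM are TMM-scaled except in the level that chose the members. The test was tried on simulated counts. Alternatives used limma 3.58.1, DESeq2 1.42.0, other scalings and filters, the replicate letter, libraries left out, chromosome 15 left out and other levels for members. Members, classes and lists were chosen with earlier results of these data known, and classes follow the best described substrate. Genes were named by rule: the 10 largest rises and falls without overlap, the 2 largest each way per class, and textbook carriers; others were named after their values were seen. A few members' own values are not reported here; they stay in the counts and figures. Positions and exon lengths are from GENCODE 29, with which all 143 members matched, and promoters from RefSeq. No protein sequence was used.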

Additional observations from a re-analysis of the deposited data

Results flagged for a closer look

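In 150 groups of 5 libraries (a named gene in 1 guide), 12 had a library whose gap to the nearest of the others was large beside the range of the group; chance gives about 1 in 20 such groups, and 9 of the 12 were A libraries. The EFNB2 guide library A was the lowest for SLC25A34 (9.92 CPM, others 12.4 to 13.3), SLC25A6 (159 CPM, others 177 to 183) and SLC4A8 (8.04 CPM, others 9.64 to 10.2). It was the highest for SLC38A1 (516 CPM, others 478 to 487), SLC43A2 (15.7 CPM, others 12.9 to 13.7) and the scaffold gene SLC9A3R1 (371 CPM, others 350.0 to 354). The control library A was the lowest for SLC29A3 (4.42 CPM, others 5.82 to 6.23) and SLC43A2 (25.1 CPM, others 27.7 to 28.3) and the highest for the glycine carrier SLC6A9 (20.7 CPM, others 12.8 to 14.6). Outside the A libraries, SLC16A1 was highest in the EFNB2 guide library D (115 CPM, others 112 to 113), SLC33A1 in the control library B (14.3 CPM, others 11.4 to 12.1), and the creatine carrier SLC6A8, which is below the level of the members, in the EFNB2 guide library E (5.73 CPM, others 4.86 to 5.01).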

How the results depend on the processing

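Of all tested genes, 8098 passed, and from 6762 to 9854 did so under the 20 alternatives tried. Members higher numbered 28 to 43 over those alternatives and members lower 40 to 58. With a level of at least 20 CPM, 31 members were lower, 0 were higher by 1.5-fold and the median log2 fold change was 0.0032. At least 2 CPM gave 5 members higher by 1.5-fold, and the deposited normalized values gave 1. The median of the members, -0.017, was -0.00088 with library totals alone, -0.042 on the deposited normalized values and -0.027 to 0.000498 over the 10 fits without 1 library (lowest without the control library A, highest without the control library C, -0.0028 without the EFNB2 guide library C and -0.0061 without E), so its sign is not settled; the cause was not tested. The amino acid class had 5 lower without the EFNB2 guide library D in place of 8. Lower monocarboxylate carriers were 2 in place of 4 without the EFNB2 guide library E or the control library D or E. The lower nucleoside carrier SLC29A3 was lost without the EFNB2 guide library B, D or E or the control library B, C, D or E. Taking the replicate letter as a block gave 6762 genes, 29 members higher and 42 lower, with 7 SLC25 members higher and 2 SLC16 members lower. Libraries with the same letter had deviations correlated at -0.24 to -0.003, none of them positive, so the letters give no sign of a shift shared in the same direction. The A libraries, at -0.24, had the value largest in size of all pairs across the guides, with deviations that ran in opposite directions. Members just inside the level had larger standard errors than SLC20A1 at 182 CPM (0.0234). They were 0.114 for SLC29A3, whose control library A stood apart, 0.0632 for SLC25A53 and 0.0623 for SLC26A1. The share of members called was 61.4% between 5 and 20 CPM and 51.3% from 60 CPM up. Among all tested genes it was 51.5% and 60.2%. The part of depth in these values was not tested. EFNB2 averaged 0.119 CPM in the controls, and the part of depth in the size of its rise was not tested.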
